A study of Homo sapiens with 6 samples.

Results

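The 39 human HOX genes were followed in RNA-seq libraries of IMR-90 cells, a line of human fetal lung fibroblasts. They were found as the rows of the gene table whose symbol is HOX, a cluster letter A, B, C or D and a number, with antisense genes left out, and they make up 39 of the 23754 rows of the table. All 39 had a row: 11 in the HOXA cluster, 10 in HOXB, 9 in HOXC and 9 in HOXD.

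HOX genes encode transcription factors that bind DNA through a homeodomain and give cells an identity along the head-to-tail axis of the embryo. They lie in 4 clusters on 4 chromosomes, and members that descend from the same ancestral gene share a paralog number. Low numbers sit at the 3′ end of a cluster and are used early and toward the head, while high numbers sit at the 5′ end and are used later and toward the tail and the limb ends. Fibroblasts grown in culture are known to keep the HOX set of the body site they came from, and HOX genes of low and middle number, HOXA5 and HOXB5 among them, are known from lung mesenchyme.

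The study asked what ZNF469, a zinc finger protein, contributes to gene expression in lung fibroblasts. The Control group held 3 libraries of cells grown without doxycycline, and the Sh-ZNF469 group held 3 libraries of cells given doxycycline at 2 µg/mL for 4 days, which switched on the hairpin sh-2 against ZNF469. Both groups came from a stable line made with the lentiviral vector Tet-pLKO-puro and kept under puromycin. The sample labels call the Control genotype Wild-type and the other ZNF469-knockdown, but the protocol describes the Control as the same inducible cells without doxycycline. The submitters describe the replicates as technical, so every p-value, SE and interval below rests on the spread between these libraries and not between cultures. The libraries come from 1 hairpin and include none of doxycycline without a hairpin. In them, the effects of doxycycline and of the knockdown cannot be told apart. Outside these libraries, the paper reports that collagen production was unchanged by doxycycline alone or by transduction alone. It also used another hairpin in RT-qPCR of matrix genes. No such control of HOX genes is described in the text of the paper.

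Library totals ran from 34057675 to 36120260 counts, of which HOX genes took 0.0227% to 0.0245%. ZNF469 had 3981, 3941 and 4409 counts in Control and 2869, 2851 and 2882 in Sh-ZNF469, which left 67.5% of the Control level (log2 fold change −0.57, SE 0.0477, adjusted p = 3.31e-05, edgeR quasi-likelihood test). The exact two-sided permutation test over the 6 libraries gave p = 0.1, the smallest that 3 against 3 allows. The fibroblast markers used as a check summed to between 8495 and 8557 FPKM in Control and to between 7277 and 7364 in Sh-ZNF469. FPKM are fragment counts scaled for transcript length and library size. Of the 9 markers, 5 fell in the test given below, among them COL1A1 (mean 2077 and 1319 FPKM) and COL1A2 (1676 and 1238). VIM (3825 and 3874 FPKM), THY1, PDGFRA and PDGFRB did not pass it. Epithelial markers summed to at most 0.223 FPKM with KRT5, SFTPC, SFTPB and NKX2-1 at 0 in all 6 libraries, and endothelial markers to at most 0.0940 with PECAM1 and CDH5 at 0. Smooth muscle markers summed to between 0.464 and 0.685 FPKM and blood markers to between 29.3 and 32.4, nearly all of it CD68, a lysosomal protein that fibroblasts also make, with HBB at 0. The first principal component, with 23.9% of the variance, set Sh-ZNF469 replicate 2 apart at 32.8 from the other 5 libraries at −12.6 to 0.52, and fold changes of HOX genes without it are given below.

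The HOX genes resemble each other most in the homeobox, the stretch of 180 bases that codes for the DNA-binding homeodomain. It is shown here for HOXA4, an expressed gene, and its paralog HOXC4, which had almost no counts, because it bears on how far short reads can tell paralogs apart. In both genes it lay in exon 2, and capitals mark the 39 positions at which they differed, while the 141 lower-case positions were the same. Sequences are those of GRCh38 along the coding strand, at chr7:27129366-27129545 (minus strand) for HOXA4 and chr12:54054876-54055055 (plus strand) for HOXC4.
HOXA4: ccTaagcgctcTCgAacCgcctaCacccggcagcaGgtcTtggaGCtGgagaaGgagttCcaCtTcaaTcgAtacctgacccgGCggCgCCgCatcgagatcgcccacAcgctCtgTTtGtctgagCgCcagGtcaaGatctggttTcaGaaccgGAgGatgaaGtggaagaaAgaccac
HOXC4: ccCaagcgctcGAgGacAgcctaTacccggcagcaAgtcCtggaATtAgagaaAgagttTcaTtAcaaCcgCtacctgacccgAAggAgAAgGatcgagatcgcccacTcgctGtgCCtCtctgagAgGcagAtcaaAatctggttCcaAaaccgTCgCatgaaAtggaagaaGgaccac

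These homeoboxes were identical at 78.3% of their bases, and the longest run of identical bases was 15. Over the canonical GENCODE 44 transcripts of all 39 genes, the longest exact stretch that any pair shared was 62 bases, in HOXB3 and HOXD3, then 51 in HOXB6 and HOXB7 and 50 in HOXB4 and HOXB5. None of the 741 pairs shared as much as a read of 150 bases. Paralogs could therefore be told apart by sequence over a full read, whereas overlapping gene models at one locus could not. In the annotation the exons of HOXB3 overlap those of HOXB4 and HOXB6 on the same strand, and those of the antisense genes HOXB-AS1 and HOXB-AS3. Exons of HOXB2 overlap HOXB-AS1, those of HOXB5 and HOXB6 overlap HOXB-AS3, and those of HOXA3, HOXA4, HOXA6 and HOXA7 overlap HOXA-AS2 or HOXA-AS3. The library kit named in the methods does not mark the strand, so reads of these genes and their antisense partners cannot be told apart. Of 19 other transcripts of the HOX loci looked for by name, antisense ones among them, 0 had a row in the gene table. Whether their reads were counted in the rows of HOX genes was not tested.

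In the Control fibroblasts HOX expression was concentrated in the 3′ and middle part of the HOXB cluster and, at lower levels, of the HOXA cluster. Of the 39 genes, 11 reached 1 FPKM in every Control library, 7 in HOXB (HOXB2 to HOXB8) and 4 in HOXA (HOXA3, HOXA4, HOXA5 and HOXA7). Over both groups, a further 10 genes passed 3 counts in at least 1 of the 6 libraries, HOXB9 and HOXC9 among them only in Sh-ZNF469 libraries, and 18 genes had 3 counts or fewer in each, 15 of them with 0 throughout. All HOX genes together summed to 99.98, 107.4 and 104.3 FPKM in the 3 Control libraries. HOXB genes held 85.9% ± 0.329 of that sum, HOXA genes 13.8% ± 0.269, HOXC genes 0.320% ± 0.0599 and HOXD genes 0.00821% ± 0.0142 (SD, n = 3). In bulk RNA a level in FPKM cannot separate how many cells express a gene from how much RNA each cell holds.

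**Figure D1:**
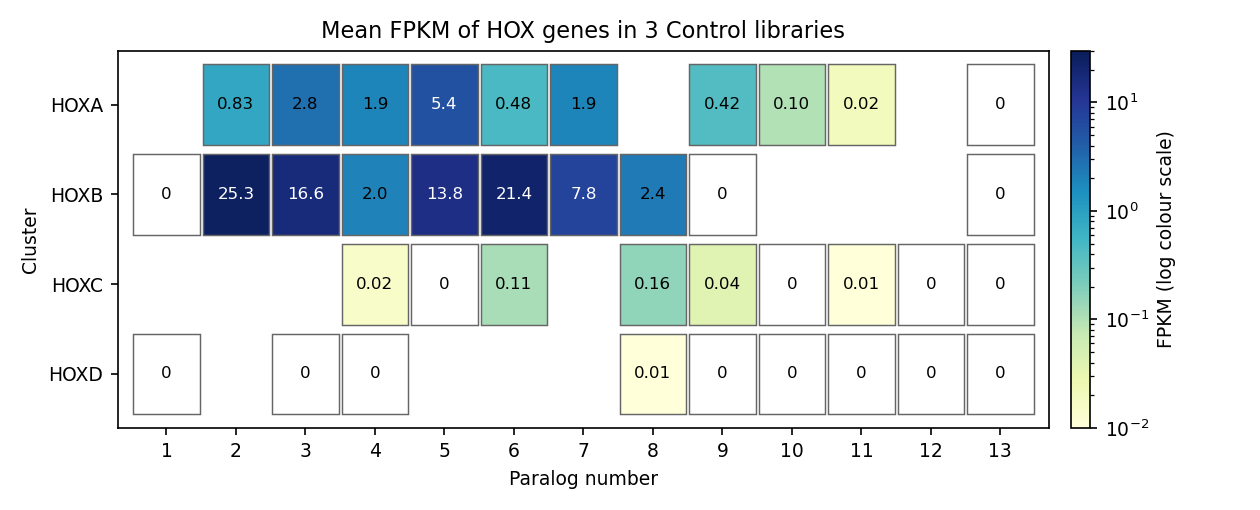
Mean FPKM of HOX genes over the 3 Control libraries, with clusters as rows and paralog numbers 1 to 13 as columns. Colour gives FPKM on a log scale, white boxes are genes at 0, and gaps are positions with no gene or no value shown. The filled boxes with 1 FPKM or more lie between columns 2 and 8 of the HOXB row and columns 3 and 7 of the HOXA row, and the HOXC and HOXD rows reach at most 0.160 FPKM.

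The HOXB cluster lies on chromosome 17 between positions 48528526 and 48728750 of GRCh38, a span of 200.2 kb, with every gene on the minus strand. HOXB2 (ENSG00000173917, chr17:48540894-48545109), a regulator of hindbrain segment identity, was the highest HOX gene in FPKM, with 24.2, 26.4 and 25.5 in Control and 24.9, 24.8 and 26.5 in Sh-ZNF469. Its Control mean of 25.3 ± 1.11 FPKM (SD, n = 3) lay above 87.9% of the annotated genes in the table. HOXB6 (ENSG00000108511, chr17:48595751-48604992) followed with 19.9, 21.7 and 22.5 FPKM in Control and 22.5, 18.9 and 22.6 in Sh-ZNF469. The Control values of these genes did not overlap, but their order depended on the gene length used: per kilobase of the canonical transcript, HOXB6 had 27.8 ± 2.04 CPM (counts scaled to library size) and HOXB2 26.2 ± 1.22.

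HOXB3 (ENSG00000120093, chr17:48548870-48604912), a long locus that spans HOXB4 to HOXB6, had 15.6, 17.4 and 16.6 FPKM in Control and 16.8, 16.9 and 16.5 in Sh-ZNF469. HOXB5 (ENSG00000120075, chr17:48591257-48593779), which is active in developing lung mesenchyme, had 14.17, 14.30 and 12.97 FPKM in Control and 11.39, 12.90 and 12.35 in Sh-ZNF469. The groups overlapped for HOXB2, HOXB6 and HOXB3, and for HOXB5 the lowest Control library stood just above the highest Sh-ZNF469 library. HOXB7 (ENSG00000260027, chr17:48607232-48633572) had 7.80, 8.28 and 7.33 FPKM in Control and 8.58, 8.10 and 8.54 in Sh-ZNF469.

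HOXB8 (ENSG00000120068, chr17:48611377-48615292), known for holding myeloid progenitors in an immature state when overexpressed, had 2.50, 2.41 and 2.14 FPKM in Control and 2.06, 1.91 and 2.87 in Sh-ZNF469. HOXB4 (ENSG00000182742, chr17:48575507-48578350), known for its role in the growth of blood stem cells, had 1.99, 1.94 and 2.13 FPKM in Control and 2.65, 2.01 and 2.03 in Sh-ZNF469. In deposited FPKM HOXB4 was the lowest of the 7 expressed HOXB genes, although its neighbours HOXB3 and HOXB5 averaged 16.6 and 13.8 FPKM in Control. That low value depended in part on gene length, since the deposited count and FPKM of HOXB4 implied a transcript 2.06 times as long as the canonical one of 2002 bases. Per kilobase of the canonical transcript HOXB4 had 4.22 ± 0.256 CPM, above HOXB8 at 2.05 ± 0.211, which was then the lowest of the 7, and below HOXB3 at 18.8 ± 0.848 and HOXB5 at 16.9 ± 0.722.

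Both ends of the HOXB cluster were silent within the depth of the libraries. HOXB1 (chr17:48528526-48531011), which specifies a hindbrain segment and lies at the 3′ end, and HOXB13 (chr17:48724763-48728750), known for its expression in the prostate, had 0 counts in all 6 libraries. HOXB9 (chr17:48621156-48626358) had 0 counts in every Control library and 0, 6 and 2 counts in Sh-ZNF469, the 6 in replicate 2, the library that stood apart. The step from HOXB8 to HOXB9 took a short distance, as 5864 bp separate the 2 gene models, while 98405 bp separate HOXB9 from HOXB13. The level that a count of 0 allows was taken as 3 counts per library. By that level HOXB8 stood at least 73.4-fold, 73.3-fold and 65.3-fold above HOXB9 in the 3 Control libraries. This bound covers counting error only and takes each count as a separate fragment. If mates were counted separately, the bound would be lower.

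The HOXA cluster on chromosome 7 (107.1 kb, every gene on the minus strand) showed a similar 3′ and middle bias at a lower sum, with 13.6, 14.7 and 14.7 FPKM in Control against 86.1, 92.4 and 89.2 for HOXB. HOXA5 (ENSG00000106004, chr7:27141052-27143681), needed for lung and airway formation in the mouse, led the cluster with 5.30, 5.75 and 5.29 FPKM in Control and 5.79, 4.93 and 5.23 in Sh-ZNF469. HOXA3 (ENSG00000105997, chr7:27106184-27152583), needed for the thymus and parathyroid, had 2.73, 2.87 and 2.88 FPKM in Control and 2.46, 3.26 and 2.69 in Sh-ZNF469. Neither gene separated the groups in FPKM, and the Control values of HOXA5 lay above those of HOXA3 and below those of HOXB7 without overlap.

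HOXA7 (ENSG00000122592, chr7:27153716-27157936) had 1.89, 1.83 and 1.91 FPKM in Control and 1.40, 1.63 and 1.67 in Sh-ZNF469. HOXA4 (ENSG00000197576, chr7:27128507-27130780) had 1.64, 1.85 and 2.12 FPKM in Control and 1.74, 2.30 and 1.34 in Sh-ZNF469. HOXA7 was lower in all 3 Sh-ZNF469 libraries, while HOXA4 overlapped between groups, and in Control these 2 genes were the only neighbours in the order of the 11 expressed genes whose values overlapped. HOXA2 (chr7:27100354-27102686), which patterns the second pharyngeal arch, came next below the 1 FPKM level with 0.745, 0.791 and 0.951 FPKM in Control and 0.837, 1.02 and 0.760 in Sh-ZNF469.

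Further HOXA genes were low. In Control HOXA6 averaged 0.477 ± 0.140 FPKM, HOXA9 0.422 ± 0.0756 and HOXA10 0.0982 ± 0.0415 (SD, n = 3). HOXA9 and HOXA10, both known from blood-forming cells, thus marked a decline toward the 5′ end that went on to 0, 2 and 4 Control counts for HOXA11 and to 0 counts in all 6 libraries for HOXA13, a gene of the limb tips and the urogenital tract. HOXB also fell in steps, with Control means of 21.4 FPKM for HOXB6, 7.80 for HOXB7 and 2.35 for HOXB8. The clusters differed at HOXA9 and HOXB9: HOXA9 still had 24 to 41 counts per Control library, where HOXB9 had 0.

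**Figure D2:**
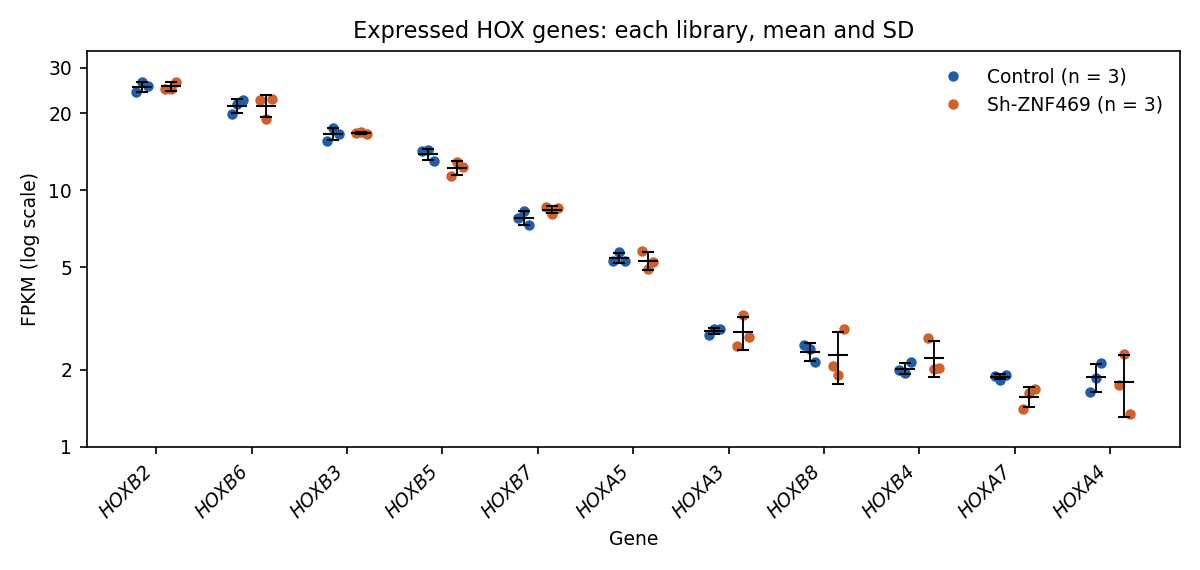
FPKM on a log axis of the 11 HOX genes at 1 FPKM or more in every Control library, in order of their Control mean. Points are the 3 Control and 3 Sh-ZNF469 libraries, with the group mean and SD as bars. Levels run from 25.3 FPKM for HOXB2 to 1.87 for HOXA4, and only HOXB5 and HOXA7 have every Sh-ZNF469 point below every Control point, while no gene has every point above.

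HOXC and HOXD genes were close to or at 0. Of the HOXC cluster (chromosome 12, 53938831 to 54056030, plus strand), HOXC8, which patterns thoracic vertebrae, was highest with 15, 7 and 14 counts in Control and 21, 19 and 29 in Sh-ZNF469, or 0.160 ± 0.0630 and 0.307 ± 0.0620 FPKM (SD, n = 3 each). HOXC6 had 5, 10 and 9 counts in Control and 16, 3 and 12 in Sh-ZNF469, and HOXC9 had 2, 3 and 2 and then 0, 4 and 4. These were the 3 HOXC genes with more than 3 counts in any library, HOXC9 in Sh-ZNF469 alone, and all lie in the middle of the cluster. HOXC4 had 3 counts and HOXC11 had 2, each in Control replicate 3 alone, and HOXC5, HOXC10, HOXC12 and HOXC13 had none.

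In the HOXD cluster (chromosome 2, 176092721 to 176190907, plus strand) the 9 genes together held 2 counts, both of HOXD8 in Control replicate 3. HOXD1, HOXD3, HOXD4 and HOXD9 to HOXD13 had 0 counts in all 6 libraries, among them HOXD13, which shapes the digits. The count of 0 was least informative for HOXD4, which has the shortest canonical transcript of the cluster, as 3 counts there would be up to 0.0775 FPKM. HOXD expression was thus not detectable at this depth, and this limit lay under the 1 FPKM by which a gene was defined as expressed.

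Read by paralog number, expression was held by groups 2 to 8. The 23 genes of groups 1 to 8 carried 99.4% ± 0.122 of the HOX FPKM in Control, and the 16 genes of groups 9 to 13 carried 0.560% ± 0.122 with none of them at 1 FPKM. Groups 2, 6, 3 and 5 took the largest shares, 25.2% ± 0.224, 21.1% ± 0.941, 18.7% ± 0.270 and 18.5% ± 0.989, followed by group 7 with 9.32% ± 0.425, group 4 with 3.76% ± 0.316 and group 8 with 2.43% ± 0.246. Groups 12 and 13 had 0 counts. HOXB1 and HOXD1, of the most anterior group, also had 0. Paralogs of one group therefore differed widely between clusters: in group 4, HOXB4 and HOXA4 had 279 to 315 and 101 to 137 Control counts, HOXC4 had 0, 0 and 3, and HOXD4 had 0.

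Reference sequence before RefSeq transcript starts was compared for the members that RefSeq windows covered, since this pattern set expressed genes beside silent ones. RefSeq (GRCh38.p14) held windows for 20 of the 39 genes, 27 windows in all, read here over 200 bases from 250 to 51 bases before the start. HOX windows held a median of 15 CpG dinucleotides, the bases at which DNA can be methylated, with a range of 0 to 39, against a median of 8 over all 35116 windows. The 9 windows of the 3 expressed genes covered (HOXA3, HOXA4 and HOXA7) had a median of 11 and the 12 windows of undetected genes a median of 17. HOXA3 alone gave 7 of those 9 windows, with 0 to 18 CpG, while HOXA4 with 22 and HOXA7 with 24 stood above the median of the undetected genes, so the order depended on whether windows or genes were counted. Windows of neighbouring transcripts of one gene, and the window that HOXC4 and HOXC5 share, are not independent. Some windows did not lie before the whole gene. The HOXA7 window lay inside the HOXA7 gene model and overlapped a HOXA7 exon. Most HOXA3 windows lay inside the HOXA3 gene model, some of them over exons of HOXA-AS2 or HOXA-AS3. A pair of paralogs of group 4 is shown, an expressed and a silent one, on the gene's own strand with each CpG in capitals: HOXA4 (expressed, chr7:27130808-27131007, minus strand) held 22 CpG and 73.5% GC, and HOXD4 (0 counts, chr2:176151300-176151499, plus strand) held 3 CpG and 45% GC. HOXD4 had the fewest CpG of the 12 windows of undetected genes, and HOXC4, also silent and of group 4, held 10. The pair thus runs opposite to the medians of 11 and 17 and does not stand for expressed and silent genes in general.
HOXA4: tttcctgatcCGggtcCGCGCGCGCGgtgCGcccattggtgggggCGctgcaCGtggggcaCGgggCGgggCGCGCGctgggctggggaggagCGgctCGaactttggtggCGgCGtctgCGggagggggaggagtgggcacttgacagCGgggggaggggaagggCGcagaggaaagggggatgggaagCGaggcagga
HOXD4: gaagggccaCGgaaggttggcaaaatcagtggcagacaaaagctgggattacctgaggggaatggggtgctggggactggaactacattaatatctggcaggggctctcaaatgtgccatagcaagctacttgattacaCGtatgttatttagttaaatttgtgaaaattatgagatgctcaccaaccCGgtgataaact

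The letters TGATNNAT, a form of the site that HOX proteins bind together with PBX partners, were searched on both strands. They occurred in 3 of the 27 HOX windows (HOXA2, HOXB1 and HOXD11), or 11.1%, against 5.42% of all windows. None of these 3 genes was among the expressed ones. However, only 3 of the 11 expressed genes (HOXA3, HOXA4 and HOXA7) had a window, so the others, all of HOXB among them, could not be searched. A match is only a match of letters.

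The comparison of Sh-ZNF469 with Control asked whether the HOX set moved with ZNF469. Of the 39 genes, 17 had enough counts for the edgeR quasi-likelihood test, and 0 of the 17 passed an adjusted p of 0.05, against 1.12% of the 13991 features tested (0.4% higher and 0.715% lower, or 56 and 100 features, against 88 and 77 with library-size scaling). At an unadjusted p under 0.05, HOXB5 alone passed, 1 of 17 or 5.88%, against 15% of all features. DESeq2 called 0 of the 17, with 11 of their adjusted p-values not given, against 260 features higher and 267 lower of 13991. Limma-voom called 0 of the 17, against 56 higher and 98 lower of 13991. At such shares, 0 calls among 17 genes does not set them apart from other features. At an unadjusted p under 0.05, DESeq2 had HOXB5 alone, and limma-voom had HOXB5 and HOXC8. The share of all features at that p was not computed for these tools. The median log2 fold change of the 17 genes was −0.04, with 7 above 0 and 10 below, beside −0.0019 over all features tested, and without Control replicate 3 it was 0.03. The HOX sum was 103.9 ± 3.73 FPKM in Control and 102.96 ± 1.96 in Sh-ZNF469 (SD, n = 3), and the difference was smaller than either SD.

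**Figure D3:**
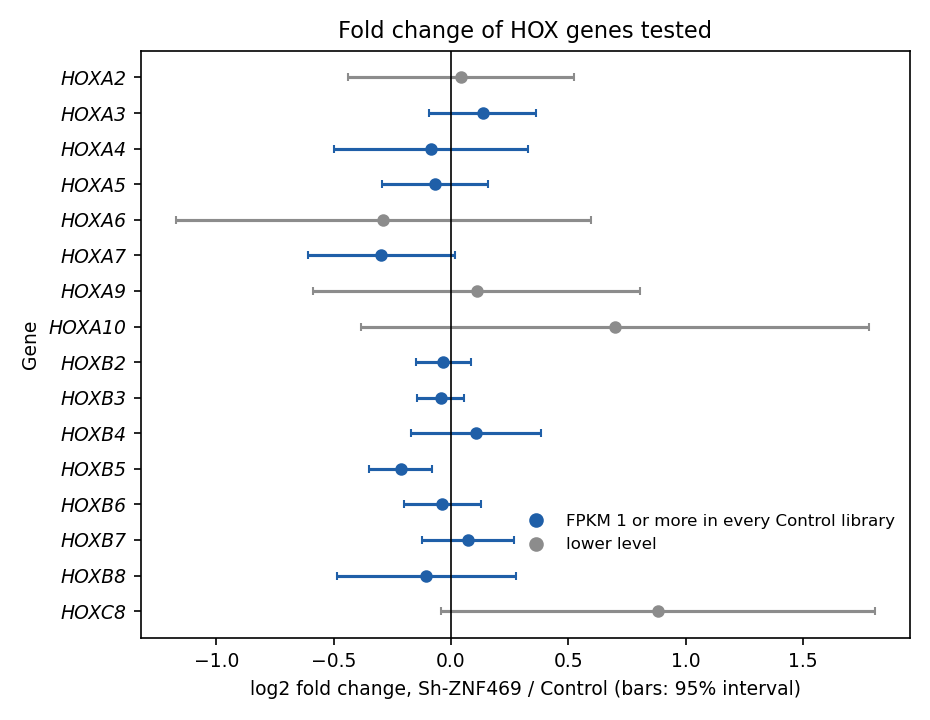
Log2 fold change of Sh-ZNF469 over Control for 16 of the 17 HOX genes tested, with 95% intervals from the edgeR fit. Blue points are genes at 1 FPKM or more in every Control library and grey points are genes below it. The interval of HOXB5, −0.35 to −0.08, is the only one drawn that leaves out 0, and the widest intervals belong to the low genes HOXA6, HOXA10 and HOXC8.

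For the expressed genes the intervals were narrow enough to bound the change between these libraries, though not between cultures. The bound holds for a knockdown that left 67.5% of the ZNF469 level. All 11 expressed genes had a 95% interval that left out a doubling and a halving, and for 10 of them it lay within 1.5-fold either way. The lowest bound was 0.655-fold for HOXA7 and the highest 1.31-fold for HOXB4. The median SE of the log2 fold change was 0.105 for the 11 expressed genes and 0.366 for the other 6. For those 6 low genes a change of moderate size was not detectable at this depth, which is not evidence that they stayed the same.

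HOXB5 came nearest to a call. Its counts were 1082, 1136 and 1040 in Control and 907, 1001 and 992 in Sh-ZNF469, so that each Sh-ZNF469 library was below each Control library. The log2 fold change was −0.21 with SE 0.0620, a fold between 0.785 and 0.946, with an unadjusted p of 0.00425 and an adjusted p of 0.128 in the edgeR fit. Over the 16 alternatives the log2 fold change of HOXB5 stayed between −0.25 and −0.17 and the adjusted p between 0.0721, from DESeq2, and 0.348. Without Sh-ZNF469 replicate 2, the library that stood apart, it was −0.25 with an adjusted p of 0.155. The exact two-sided permutation test over the 6 libraries gave p = 0.1 for HOXB5, HOXC8 and HOXA7, the smallest that 3 against 3 allows.

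HOXC8 had the largest log2 fold change of the 17 in absolute size, 0.88 with an interval of −0.04 to 1.81 and an adjusted p of 0.358, on at most 29 counts per library. HOXA7, at 143, 144 and 152 counts in Control and 111, 125 and 133 in Sh-ZNF469, had −0.30 with an interval of −0.61 to 0.02 and an adjusted p of 0.358. HOXA3 counts were 251, 271 and 256 in Control and 304, 280 and 298 in Sh-ZNF469, a log2 fold change of 0.13 with an adjusted p of 0.588. Of these, HOXC8 and HOXA3 were higher and HOXA7 lower in every Sh-ZNF469 library by count, and none passed the test. The deposited FPKM of HOXA3 did not separate the groups, so counts and FPKM of this gene order the libraries differently. With HOXB5, 4 of the 17 genes had groups that did not overlap, or 23.5%, against 20.3% of all features (2 higher, beside 9.73% of all features, and 2 lower, beside 10.6%).

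The other 13 genes overlapped between groups. Among the high HOXB genes the log2 fold change was −0.03 for HOXB2, −0.04 for HOXB3, −0.04 for HOXB6 and 0.07 for HOXB7, with SE between 0.0462 and 0.0904. HOXB4 had 0.11, HOXB8 −0.11, HOXA5 −0.07 and HOXA4 −0.09. Genes under 1 FPKM gave 0.70 for HOXA10, −0.29 for HOXA6, 0.11 for HOXA9 and 0.04 for HOXA2, with adjusted p from 0.548 to 0.950. The sign was the same in every alternative for 10 of the 17 genes, while for HOXA2, HOXA4, HOXA9, HOXB2, HOXB4, HOXB6 and HOXB8 it turned in at least 1. Without Sh-ZNF469 replicate 2, HOXB6 had a log2 fold change of 0.05, HOXB8 0.01, HOXA2 −0.07 and HOXA4 −0.26, so the first 3 of these turned sign with that library. HOXB4 went to 0.18, HOXA6 to −0.49, HOXA9 to 0.02 and HOXA5 to −0.01, the median of the HOX genes tested went to −0.00045, and no HOX gene passed the test. HOXC8, HOXA7 and HOXA3 were 0.995, −0.32 and 0.16.

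The distribution of expression over the clusters overlapped between the groups. The number of HOX genes at 1 FPKM or more was 11 in Control and 11 in the 3 Sh-ZNF469 libraries. HOXB genes held 85.9% ± 0.329 of the HOX FPKM in Control and 86.1% ± 1.22 in Sh-ZNF469, and HOXA genes 13.8% ± 0.269 and 13.5% ± 1.33. The share of paralog groups 9 to 13 was 0.438%, 0.559% and 0.683% in Control and 0.819%, 0.899% and 0.487% in Sh-ZNF469, with overlap.

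Partners and regulators of HOX genes were read from lists of known members. HOX proteins bind DNA with TALE homeodomain partners of the PBX, MEIS and PKNOX families, and all 9 listed passed the filter on low counts. MEIS1 had 23.3 ± 1.55 FPKM in Control and 23.4 ± 1.38 in Sh-ZNF469, PBX2 19.8 ± 0.734 and 20.005 ± 0.922, and MEIS3 19.2 ± 0.490 and 19.8 ± 0.875 (SD, n = 3). These levels were of the same order as those of HOXB2 and HOXB6. None of the 9 passed an adjusted p of 0.05, and the lowest p belonged to PKNOX1 at a log2 fold change of 0.11 with an adjusted p of 0.271 (edgeR).

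Polycomb proteins keep HOX genes silent and Trithorax-type proteins keep them active. All 29 Polycomb genes listed were measured and none passed the test, with RBBP7 at 75.8 ± 2.30, PHC2 at 59.3 ± 0.677 and PHF19 at 23.0 ± 1.17 FPKM in Control. EZH2, the methyltransferase that sets the silencing mark, had 12.2 ± 0.382 FPKM in Control and 13.1 ± 0.361 in Sh-ZNF469. Of the 15 Trithorax, COMPASS and demethylase genes none passed: DPY30 had 36.1 ± 4.43, WDR5 17.5 ± 0.337 and ASH2L 16.3 ± 0.579 FPKM in Control, and ASH2L, a core subunit of the COMPASS complexes, had the lowest p with −0.18 and an adjusted p of 0.0779. The median log2 fold change was 0.02 for both the TALE and the Polycomb list and −0.03 for the Trithorax list, beside −0.0019 over all features.

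Retinoic acid switches on 3′ HOX genes through its nuclear receptors. Of 18 genes of this axis 8 were tested and none passed. RXRB had 15.4 ± 0.455, RARG 13.96 ± 0.408 and RXRA 12.2 ± 0.480 FPKM in Control, and RXRA had the lowest p at a log2 fold change of −0.21 and an adjusted p of 0.188. RARB averaged 0.00920 FPKM and RXRG was at 0 in all 6 libraries, so 4 of the 6 receptor genes listed were expressed. The retinoic acid-making enzymes ALDH1A1 and ALDH1A2 had 0 FPKM in all 6 libraries and ALDH1A3 0.0351 ± 0.0317 in Control. Of 6 homeobox genes upstream of or beside the clusters, GBX2 alone was tested, at 0.356 ± 0.0491 FPKM in Control, and CDX2, CDX4, EVX1 and EVX2 were at 0.

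Active genes lay near the silent HOXC and HOXD clusters, although the flanking homeobox gene EVX2 was at 0 in all 6 libraries. Of 8 neighbours of the clusters 7 were tested and none passed, with a median log2 fold change of 0.0041. CALCOCO1, near HOXC, had 24.6 ± 0.909 FPKM in Control, MTX2, near HOXD, had 18.7 ± 1.75 and HIBADH, near HOXA, had 16.8 ± 0.967. MTX2 had the lowest p of the 7 with a log2 fold change of −0.10 and an adjusted p of 0.490. SKAP1, a T-cell adaptor gene next to HOXB1, was at 0 in all 6 libraries.

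Other transcription factors that mark body position were read from the same libraries. TBX2 had 79.4 ± 3.29, FOXF1, a factor of lung and gut mesenchyme, 47.1 ± 0.715 and TBX3 16.2 ± 0.648 FPKM in Control. TBX5, used in the forelimb, heart and lung, had 11.6 ± 0.114, while TBX4, its relative, had 0.0223 ± 0.0196. Of the other members, FOXF2 had 13.6 ± 0.768, PITX1 5.79 ± 0.582, GATA6 1.85 ± 0.171 and TBX15 0.00697 ± 0.0121 FPKM in Control. EN1, NKX2-1 and EMX2 were at 0 in all 6 libraries. Of 12 genes 7 were tested and none passed; the lowest p was that of FOXF2, at −0.13 with an adjusted p of 0.385. Of the 9 fibroblast markers, 5 fell in the same test: COL1A1 (log2 fold change −0.69, adjusted p = 1.66e-09), COL1A2 (−0.50, 1.74e-09), COL3A1 (−0.50, 1.13e-06), DCN (−0.18, 0.00557) and LUM (−0.22, 0.0499). HOXB5, at −0.21, had a log2 fold change close to that of LUM without passing the threshold.

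**Figure D4:**
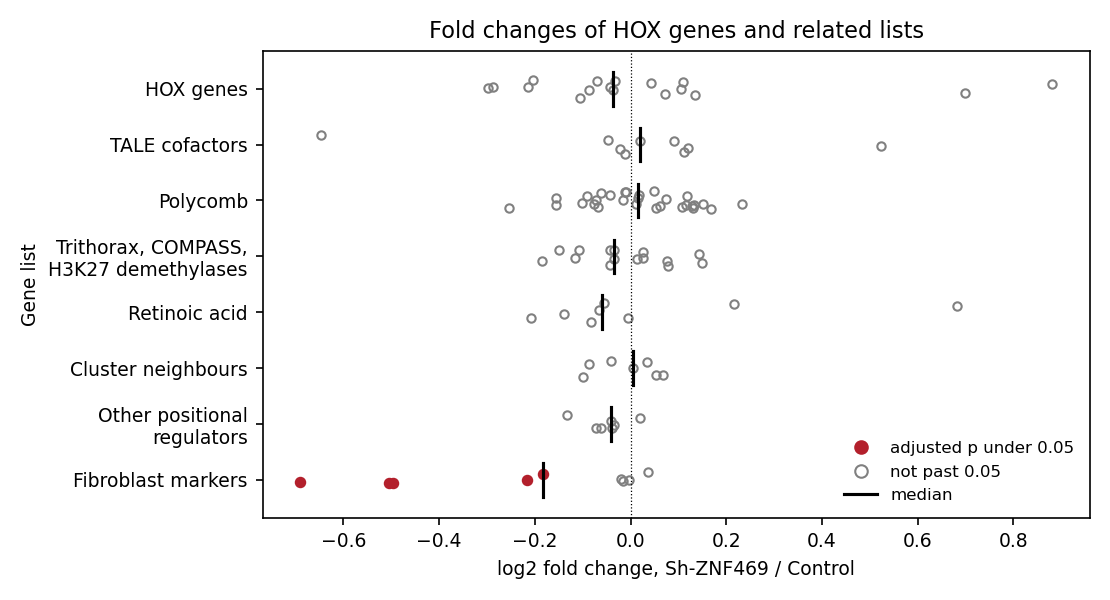
Log2 fold change of Sh-ZNF469 over Control for each tested gene of the HOX family and of the related lists, 1 point per gene, with a black bar at the list median. Filled red points passed an adjusted p of 0.05 and open points did not. Only the fibroblast list holds filled points, 5 of 9, and the HOX list has its median at −0.04.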

How the data were processed

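RNA from IMR-90 cells was sequenced as paired reads of 150 bp in 6 libraries. Per the labels and methods, the authors filtered reads, aligned them to GRCh38 with HISAT2 and used StringTie; versions, annotation release and counting step are not given in the sources used here. The deposited table holds raw counts and FPKM per gene and library. FPKM, computed by the authors, gave levels and counts gave the tests. Stray lines without a gene (17) were dropped. In every library fewer features had a count of 1 than of 2, so counts may be of mates, and floors of 3 counts may rest on fewer fragments.

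edgeR 4.0.16 in R 4.3.3 was run with filterByExpr (minimum count 10), TMM scaling and the quasi-likelihood test without covariates, with Benjamini-Hochberg adjustment over 13991 features and a threshold of 0.05. DESeq2 1.42.0 and limma 3.58.1 (voom) were alternatives, with other scalings, filters, a replicate block and leaving out each library. The steps were tested on simulated data. GENCODE 44 on GRCh38 gave coordinates and transcripts. A HOX gene counted as expressed at 1 FPKM in each Control library, and as not detected at 3 counts or fewer in all 6.

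The rule for named genes took all HOX genes, with every library's value for the 12 highest in Control and the 3 of lowest p, and from each list the members that passed, or the 3 highest and the 1 of lowest p. Some values of this rule are not reported here. Members and lists were chosen with earlier results of these data known. Genes named beyond the rule (EZH2, TBX4, TBX5, PITX1, GATA6, TBX15, the ALDH1A genes and genes at 0) were chosen after their values were seen.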

Additional observations from a re-analysis of the deposited data

Results flagged for a closer look

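An unannotated locus, listed in the table as NewGene_2757 with HOXA6 in its description and no gene symbol, lay outside the 39 rows and had counts of 4, 4 and 11 in Control and 10, 6 and 7 in Sh-ZNF469. Its highest library, at 11 counts, stood above the 3 counts that a count of 0 allows. HOXA6 itself had 14, 25 and 18 counts in Control and 16, 20 and 12 in Sh-ZNF469. Whether reads of the HOXA6 locus were divided between the 2 rows was not tested. Groups of 3 libraries are too small for the gap test of a single library's value within a group, so none was run, although Sh-ZNF469 replicate 2 stood apart on the first principal component.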

How the results depend on the processing

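No HOX gene was called in any alternative at an adjusted p of 0.05, and the lowest adjusted p of any was 0.0721. At an unadjusted p 1 was called lower. The count of HOX genes at 1 FPKM, 11, ran from 8 at 2 FPKM to 12 at 0.5 FPKM, and was 11 per kilobase of the canonical transcript, a scale chosen after seeing the data. The median HOX log2 fold change ran from −0.066 to 0.025 when a library was left out, turning above 0 without Control replicate 3. Over all features, 56 were higher and 100 lower. Without the filter on low counts these were 127 and 163, with library-size scaling 88 and 77, with DESeq2 260 and 267, at an adjusted p of 0.01 19 and 54, and at an unadjusted p 1023 and 1076. Leaving out a library gave 20 to 69 higher and 54 to 92 lower, the fewest without Sh-ZNF469 replicate 1. The cause of these shifts was not tested. Pairing by replicate number was not seen, as the deviations of same-numbered libraries from their group means correlated at −0.0241, −0.0352 and 0.0363. With 3 libraries per group these values cannot exclude it. With the replicate block 135 features were higher and 157 lower, 0 HOX genes were called, and HOXB5 had an adjusted p of 0.0999. Depth limited the genes under 1 FPKM, for which only large changes could be seen.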
